A study of Caenorhabditis elegans with 18 samples.

Results

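The cytosolic heat shock genes described here are 9 genes of the nematode Caenorhabditis elegans, chosen by name: hsf-1, hsp-90, hsp-1, hsp-110, hsp-70, hsp-16.1, hsp-16.2, hsp-16.41 and hsp-16.48. They are 9 of the 46748 gene identifiers in the deposited count table, and each name was found by its WormBase identifier in a gene annotation of WBcel235, where all 9 are protein coding. RNA was measured in whole N2 (wild-type) hermaphrodites labelled with 1 of 3 plasmids used for RNA interference, at 2 ages. The groups were M05B5.5, T14F9.5 and the control L4440 at 5 days, and M05B5.5, T14F9.5 and L4440 at 1 day, with 3 libraries in each of the 6 groups and 18 libraries in all. M05B5.5 is the sequence name of hlh-2 and T14F9.5 that of lin-32, both genes of basic helix-loop-helix transcription factors, and L4440 is the vector without an insert. The labels give no replicate numbers, so the libraries of each group are numbered here in the order of the sample list. The same number in different groups is not known to mark a shared culture or batch. Separate cultures are not named in the labels, so each p-value measures the spread between libraries, which may be technical.

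Heat shock proteins are molecular chaperones that bind unfolded or misfolded proteins and help them to fold, stay soluble or be degraded. HSF-1, the heat shock transcription factor, binds heat shock elements in the promoters of chaperone genes, and is held in check by chaperones that bind it when few proteins are misfolded. Some of its targets, such as hsp-90 and hsp-1, are transcribed at high levels in unstressed worms, whereas hsp-70 and the hsp-16 genes are nearly silent until heat or another proteotoxic stress induces them. In C. elegans, HSF-1 activity is required for a normal lifespan, and the capacity to induce these genes by heat is known to decline in early adulthood.

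Levels are given as counts-per-million values (CPM), each library's total being scaled by the trimmed mean of M-values (TMM). Some libraries stood apart from the others of their group, and the results below are given with and without them where that matters. Total counts ranged from 27024193 to 43016293 per library, and the 9 genes together took 0.72% to 1.02% of each library. The first principal component over all genes tested, with 47.3% of the variance, placed replicate 1 of M05B5.5, T14F9.5 and L4440 at day 5 at -22.5, -19.4 and -19.9. The remaining 6 day-5 libraries were at 52.9 to 70.2 and the 9 day-1 libraries at -83.0 to -19.4. These 3 first libraries thus lay within the day-1 range, near its upper end as most day-1 libraries did, and not with the others of their age label. Whether the label holds was not tested, and all values for day 5 over day 1 include them unless stated. In the second L4440 day-1 library, level fell with gene length relative to the other libraries. Its slope was -0.66 on the log2 scale per log2 of exon length, against -0.24 to 0.13 in the other 17. The lowest of these 17 slopes was that of the first L4440 day-1 library. The targeted gene hlh-2 was at 12.5 to 31.1 CPM in M05B5.5 day-5 libraries, against 53.8 to 59.3 in L4440 day-5 libraries, and at 11.4 to 12.7 in M05B5.5 day-1 libraries, against 23.7 to 53.8 in L4440 day-1 libraries. The label T14F9.5 did not go with a lower lin-32 level: this gene was at 1.06 to 5.29 CPM at day 5, against 0.23 to 0.95 in L4440, and at 1.95 to 2.45 at day 1, against 1.74 to 2.57 in L4440.

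Levels of different genes are compared per kilobase of exon. On the CPM per kilobase scale, the median over the 18 libraries ran from 1982 for hsp-1 and 1646 for hsp-90, through 193 for hsp-110, 54.4 for hsf-1 and 3.02 for hsp-16.48, to 0.53 for hsp-16.2, 0.35 for hsp-16.41 and 0.27 for hsp-70. The genes thus fell into an abundant class and a class near the detection limit. Group means of hsp-1 and hsp-90 lay close together: in L4440 day-5 libraries, hsp-1 averaged 1716 ± 374 and hsp-90 1566 ± 345 CPM per kilobase (SD, n = 3 each).

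Across age, 4 of the genes rose and 1 fell. Fold changes were taken as day 5 over day 1, averaged over the 3 plasmids, with edgeR's quasi-likelihood test and Benjamini-Hochberg adjustment over 14735 genes, and a gene was called at an adjusted p under 0.05. In that comparison hsp-70, hsp-16.2, hsp-16.41 and hsp-16.48, which are the heat-inducible genes that could be tested, were higher at day 5. The Hsc70 gene hsp-1 was slightly lower, and hsf-1, hsp-90 and hsp-110 did not pass the test. In all, 5 of the 8 genes tested were called, against a background of 28.2% of all genes. The median log2 fold change of the 8 was 0.69, against -0.0023 over all genes tested. The ninth gene, hsp-16.1, had no counts and was not tested.

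**Figure D1:**
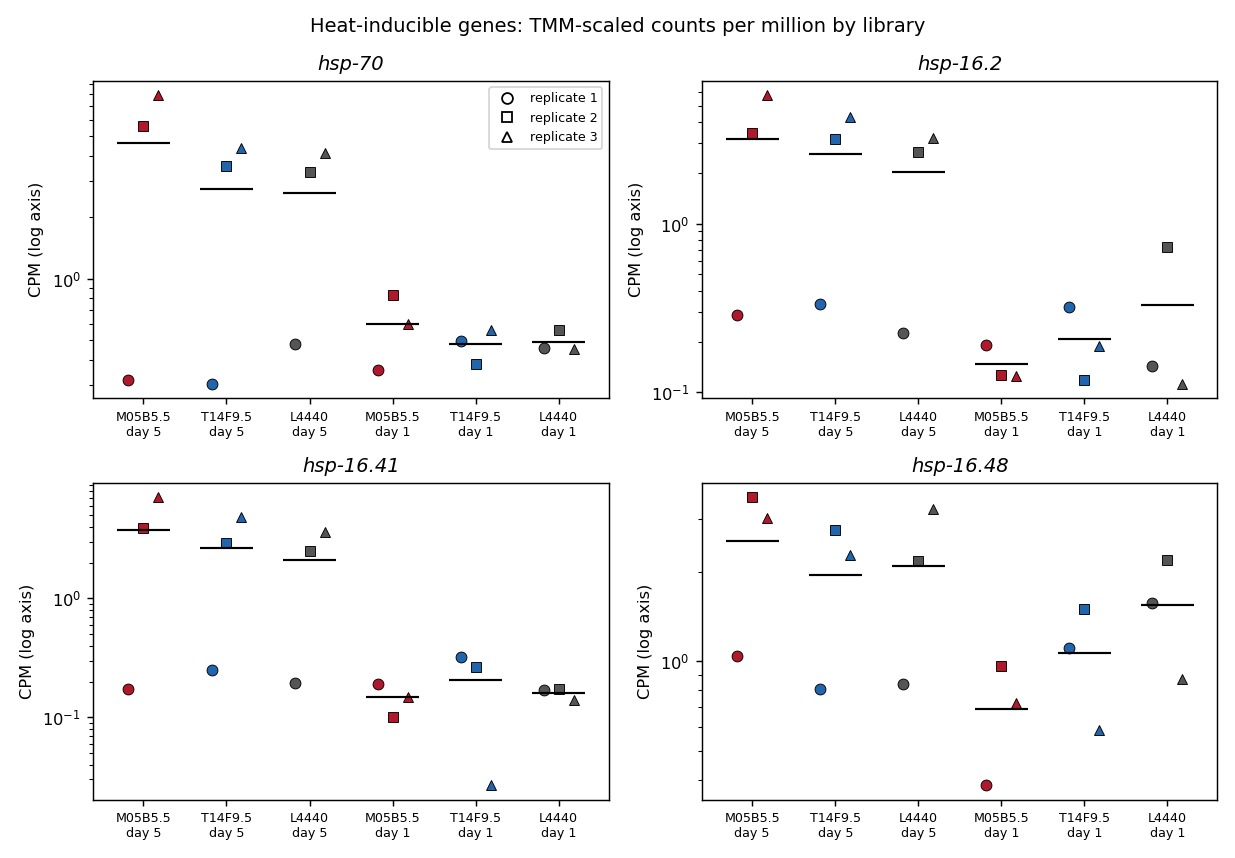
TMM-scaled CPM (log axis) of hsp-70, hsp-16.2, hsp-16.41 and hsp-16.48 in the 18 libraries, by labelled plasmid and age. Each point is a library, its shape gives the replicate and bars are group means. For hsp-70, hsp-16.2 and hsp-16.41, replicates 2 and 3 of each day-5 group lie above every other library, whereas replicate 1 of each day-5 group lies among or below the day-1 libraries.

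The gene hsp-70 (WBGene00002026; I:9320325-9322519, minus strand, 2057 bases of exon) encodes a cytosolic Hsp70 that is strongly induced by heat. It was at 0.317, 5.60 and 7.88 CPM in M05B5.5 day-5 libraries, against 0.355, 0.834 and 0.597 CPM in M05B5.5 day-1 libraries. It was at 0.306, 3.56 and 4.37 CPM in day-5 libraries labelled T14F9.5, against 0.495, 0.383 and 0.562 CPM in day-1 libraries with that label. It was at 0.476, 3.32 and 4.11 CPM in L4440 day-5 libraries, against 0.456, 0.557 and 0.451 CPM in L4440 day-1 libraries. The second and the third day-5 libraries were thus high under each plasmid, and the first lay within or below the day-1 range, so that the ages overlapped in each. Behind these values stood 126 to 335 counts in each of the 6 high libraries and 11 to 33 in each of the other 12. Averaged over the plasmids, hsp-70 rose by 2.63 ± 0.57 on the log2 scale (SE, adjusted p = 0.0105, edgeR).

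The small heat shock protein genes hsp-16.2 (WBGene00002016; V:1804334-1804957, minus strand, 578 bases of exon) and hsp-16.41 (WBGene00002018; V:1805178-1805875, plus strand, 640 bases of exon) lie head to head, with 220 bases between them. Both encode alpha-crystallin family chaperones that hold unfolding proteins in a soluble state, and hsp-16.2 promoter fusions are a common reporter of heat stress in worms. The hsp-16.2 gene was at 0.289, 3.45 and 5.74 CPM in M05B5.5 day-5 libraries, against 0.191, 0.126 and 0.124 CPM in M05B5.5 day-1 libraries. Day-5 libraries labelled T14F9.5 had 0.334, 3.17 and 4.26 CPM, against 0.320, 0.118 and 0.187 CPM at day 1. L4440 libraries had 0.224, 2.66 and 3.20 CPM at day 5, against 0.143, 0.728 and 0.113 CPM at day 1. The ages did not overlap under M05B5.5 and the label T14F9.5, but did under L4440, where the second day-1 library, the one in which level fell with gene length, exceeded the first day-5 library. Averaged over the plasmids, hsp-16.2 rose by 3.58 ± 0.67 on the log2 scale (SE, adjusted p = 0.00783, edgeR).

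For hsp-16.41, M05B5.5 libraries had 0.173, 3.93 and 7.11 CPM at day 5, against 0.191, 0.101 and 0.149 CPM at day 1. Libraries labelled T14F9.5 had 0.250, 2.94 and 4.80 CPM at day 5, against 0.320, 0.265 and 0.0268 CPM at day 1. L4440 libraries had 0.196, 2.51 and 3.59 CPM at day 5, against 0.171, 0.171 and 0.141 CPM at day 1. The first day-5 libraries lay among the day-1 values of the 3 plasmids again, and the ages did not overlap under L4440 only. Day-1 values of hsp-16.41 rest on 1 to 11 counts a library, and those of hsp-16.2 on 4 to 17, so small differences among day-1 libraries were not detectable at this depth. Averaged over the plasmids, hsp-16.41 rose by 4.01 ± 0.73 on the log2 scale (SE, adjusted p = 0.00783, edgeR). Of the 8 genes tested, it had the highest fold change at this contrast.

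A smaller rise was found for hsp-16.48 (WBGene00002019; V:9088131-9088617, plus strand, 432 bases of exon), which also encodes a small heat shock protein of the alpha-crystallin family. It was at 1.04, 3.56 and 3.04 CPM in M05B5.5 day-5 libraries, against 0.383, 0.961 and 0.722 CPM in M05B5.5 day-1 libraries. It was at 0.806, 2.77 and 2.27 CPM in day-5 libraries labelled T14F9.5, against 1.11, 1.503 and 0.589 CPM at day 1. It was at 0.840, 2.17 and 3.25 CPM in L4440 day-5 libraries, against 1.57, 2.18 and 0.874 CPM in L4440 day-1 libraries. The ages were apart under M05B5.5 and overlapped under the other labels, and replicate 1 at day 5 was low in each group. Per kilobase of exon, its day-1 group means of 1.59 to 3.57 CPM lay above those of hsp-70, hsp-16.2 and hsp-16.41, at 0.23 to 0.57 CPM. Averaged over the plasmids, hsp-16.48 rose by 1.07 ± 0.34 on the log2 scale (SE, adjusted p = 0.0334, edgeR). This call held in 15 of 27 alternative settings, with adjusted p from 0.000117 to 0.0745, whereas hsp-70, hsp-16.2 and hsp-16.41 were called in all 27.

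Replicate 1 of each day-5 group was the lowest of its group for all 4 genes, and libraries of the high and the low kind shared sequencing lanes. In 1 lane, the first L4440 day-5 library had 0.476 CPM of hsp-70 and the second 3.32 CPM. In another, the first day-5 library labelled T14F9.5 had 0.306 CPM of hsp-70, the second had 3.56 CPM and the third M05B5.5 day-5 library had 7.88 CPM. A single lane held both ages, with 1 library each of different plasmids, so no direct age difference of the same plasmid within a lane could be had. Age in M05B5.5 could be fitted with lane as a covariate. It then called 0 members and 0 of 14735 genes in edgeR. Markers of several tissues, but not of all, also moved with this split of the day-5 libraries. The summed level of 8 body wall muscle markers was 713 to 975 CPM in the 6 high day-5 libraries and 2251 to 2453 CPM in the first day-5 libraries, against 1859 to 2540 CPM in the day-1 libraries. That of 8 intestinal markers was 20880 to 33690 CPM in the 6 high libraries and 42390 to 49790 CPM in the first day-5 libraries, against 28740 to 44510 CPM at day 1. That of 8 hypodermal markers was 206 to 225 CPM in the 6 high libraries and 270 to 357 CPM in the first day-5 libraries, against 382 to 537 CPM at day 1. Markers of muscle were thus low in the 6 libraries that were high for the inducible genes, whereas 8 neuronal markers summed to 283 to 305 CPM in the 6 high libraries, against 247 to 318 CPM at day 1. All 8 markers of each of these 4 lists were detected in all libraries. Pharyngeal markers, of which 5 of 6 were detected in all libraries, summed to 30.7 to 47.7 CPM in the 6 high libraries and 103 to 106 CPM in the first day-5 libraries, against 54.9 to 90.5 CPM at day 1. Embryonic markers, of which 6 of 8 were detected in all libraries, summed to 73.6 to 93.0 CPM in the 6 high libraries. In the first day-5 libraries they summed to 113 to 117 CPM, against 41.9 to 113 CPM at day 1. Germ line and oocyte markers, with 12 of 12 detected in all libraries, did not follow the split. They summed to 14110 to 17160 CPM in the 6 high libraries and 14530 to 15240 CPM in the first day-5 libraries, against 8798 to 14590 CPM at day 1. Sperm markers, of which 3 of 12 were detected in all libraries, were higher in the 6 high libraries (0.89 to 3.84 CPM) than in the first day-5 libraries (0.42 to 0.52 CPM). At day 1 they were at 0.84 to 10.3 CPM. The part of these markers in the result was not tested. In whole animals, fewer cells of a type and less RNA per cell cannot be told apart.

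The age values without the 3 first day-5 libraries are given as a description. These libraries were the lowest of their groups for the 4 inducible genes, so larger fold changes of these genes follow from leaving them out. The genes hsp-70, hsp-16.2 and hsp-16.41 were then called under each plasmid. Under M05B5.5, the log2 fold changes of hsp-16.41, hsp-16.2 and hsp-70 were then 5.21 ± 0.50, 4.94 ± 0.55 and 3.49 ± 0.28 (SE), and hsp-16.48 also rose, by 2.25 ± 0.43, so that 4 of 8 were called against 20.4% of all genes. Under the label T14F9.5, the same 3 genes had 4.25 ± 0.49, 4.13 ± 0.54 and 3.03 ± 0.29, and 3 of 8 were called against 17.9% of all genes. Under L4440, they had 4.22 ± 0.52, 3.31 ± 0.53 and 2.94 ± 0.30, and 4 of 8 were called against 30.1% of all genes, the fourth being hsp-1 (-0.44 ± 0.15). Averaged over the plasmids, 6 of 8 were called against 45.6% of all genes: hsp-70 (3.15 ± 0.17), hsp-16.2 (4.13 ± 0.31), hsp-16.41 (4.56 ± 0.29) and hsp-16.48 (1.44 ± 0.24) rose, and hsp-1 (-0.37 ± 0.085) and hsp-90 (-0.29 ± 0.091) fell. When the second L4440 day-1 library was left out as well, 7 of 8 were called against 54.9% of all genes, the same 4 higher and hsp-110 (-0.34 ± 0.080), hsp-1 (-0.33 ± 0.063) and hsp-90 (-0.28 ± 0.076) lower.

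With all 18 libraries, no member was called at any single plasmid. In L4440, 0 of 8 passed in edgeR against a background of 15.8% of all genes, with 4 under an unadjusted p of 0.05, while DESeq2 called 3 (hsp-70, hsp-16.2 and hsp-16.41) against 26.4% of all genes. In M05B5.5, 0 of 8 passed in edgeR against 0% of all genes, with 5 under an unadjusted p of 0.05, and DESeq2 called 2 (hsp-16.2 and hsp-16.41) against 0.991% of all genes. Under the label T14F9.5, 0 of 8 passed against 0% of all genes (11 genes in DESeq2), with 3 under an unadjusted p of 0.05, and DESeq2 called 0.

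**Figure D2:**
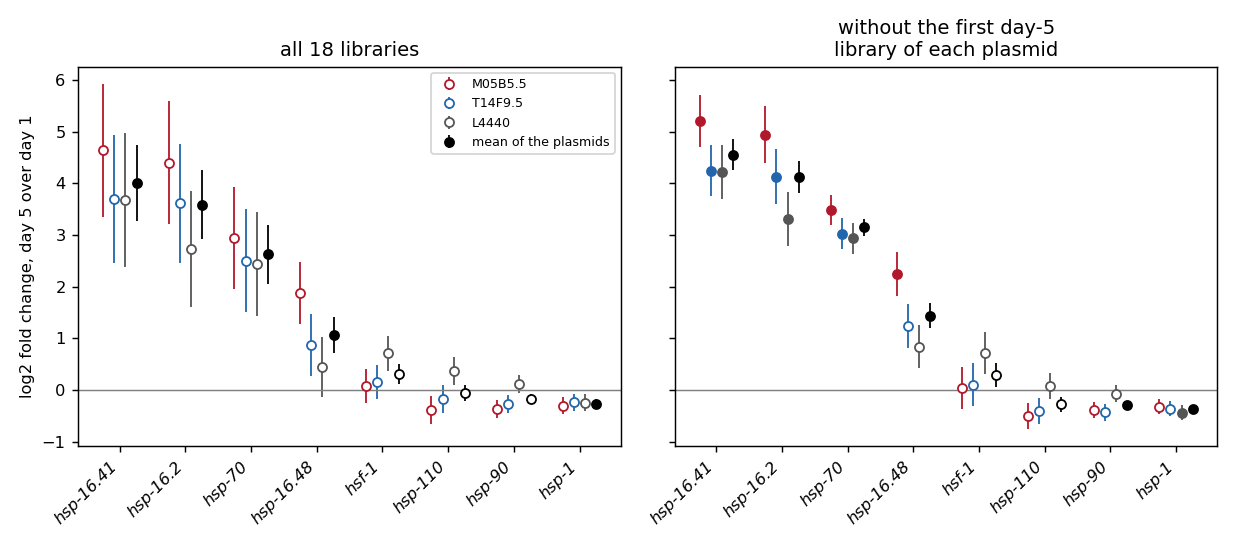
Log2 fold change of 8 genes, day 5 over day 1, by labelled plasmid and averaged over the plasmids, with all 18 libraries (left) and without replicate 1 of the 3 day-5 groups (right). Bars are ± SE, derived from the F statistic of edgeR's test, and filled points have an adjusted p under 0.05. The 3 genes hsp-16.41, hsp-16.2 and hsp-70 are above 2 at every point, while hsf-1, hsp-110, hsp-90 and hsp-1 lie between -1 and 1.

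The constitutive chaperones had smaller fold changes with age. The gene hsp-1 (WBGene00002005; IV:17278959-17281330, plus strand, 2073 bases of exon) encodes the main constitutive Hsc70. It was at 3663, 3204 and 3798 CPM in M05B5.5 day-5 libraries, against 4246, 4425 and 4466 CPM in M05B5.5 day-1 libraries. It was at 4518, 3516 and 3591 CPM in day-5 libraries labelled T14F9.5, against 4474, 4736 and 4469 CPM at day 1. It was at 4449, 3049.9 and 3171 CPM in L4440 day-5 libraries, against 3971, 4732 and 3962 CPM at day 1. The other 6 day-5 libraries were all below the 9 day-1 libraries, at 3049.9 to 3798 against 3962 to 4736 CPM, and the first day-5 libraries under the labels T14F9.5 and L4440 lay among the day-1 values. Averaged over the plasmids, hsp-1 fell by 0.26 ± 0.094 on the log2 scale (SE, adjusted p = 0.0494, edgeR), and this call held in 9 of 27 alternative settings, with adjusted p from 0.000712 to 0.111.

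The gene hsp-90 (WBGene00000915; V:14684918-14688545, plus strand, 2359 bases of exon), also named daf-21, encodes the Hsp90 chaperone that matures kinases and receptors and binds HSF-1 in unstressed cells. It was at 3721, 3328 and 3963 CPM in M05B5.5 day-5 libraries, against 4479.6, 4919 and 4874 CPM in M05B5.5 day-1 libraries. It was at 4952, 3604 and 3654 CPM in day-5 libraries labelled T14F9.5, against 4928, 4928 and 4796 CPM at day 1. It was at 4611, 3064 and 3404 CPM in L4440 day-5 libraries, against 2931, 3449.7 and 3804 CPM in L4440 day-1 libraries. The ages did not overlap under M05B5.5 only. The age difference averaged over the plasmids was -0.17 ± 0.10 on the log2 scale (SE, adjusted p = 0.197, edgeR).

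The gene hsp-110 (WBGene00016250; III:8443910-8446909, minus strand, 2702 bases of exon) encodes the Hsp110 nucleotide exchange factor that works with Hsp70 proteins to dissolve aggregates. It was at 542, 408 and 464 CPM in M05B5.5 day-5 libraries, against 610.3, 622 and 616 CPM in M05B5.5 day-1 libraries. It was at 687, 454 and 466 CPM in day-5 libraries labelled T14F9.5, against 671, 517 and 629 CPM at day 1. It was at 675, 393 and 416 CPM in L4440 day-5 libraries, against 384, 236 and 527 CPM in L4440 day-1 libraries. The M05B5.5 ages were apart, while in L4440 the second day-1 library was the lowest of all 18. The age difference averaged over the plasmids was -0.063 ± 0.15 on the log2 scale (SE, adjusted p = 0.765, edgeR). It ran from -0.34 to 0.051 over 27 alternative settings, with adjusted p from 0.00314 to 1, and was called in 1 of them, the one without the first day-5 libraries and the second L4440 day-1 library.

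The regulator hsf-1 (WBGene00002004; I:11953507-11963085, minus strand, 2478 bases of exon) showed no called change with age. It was at 145, 139 and 136 CPM in M05B5.5 day-5 libraries, against 139.8, 133 and 127 CPM in M05B5.5 day-1 libraries. It was at 145, 124 and 139 CPM in day-5 libraries labelled T14F9.5, against 142, 89.99 and 133 CPM at day 1. It was at 146, 133 and 159 CPM in L4440 day-5 libraries, against 106, 31.2 and 131 CPM in L4440 day-1 libraries. The L4440 ages were apart, and the second L4440 day-1 library was far below all others. The age difference averaged over the plasmids was 0.31 ± 0.19 on the log2 scale (SE, adjusted p = 0.213, edgeR), and it passed the test in 0 of 27 alternative settings, with adjusted p from 0.0577 to 0.348.

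**Figure D3:**
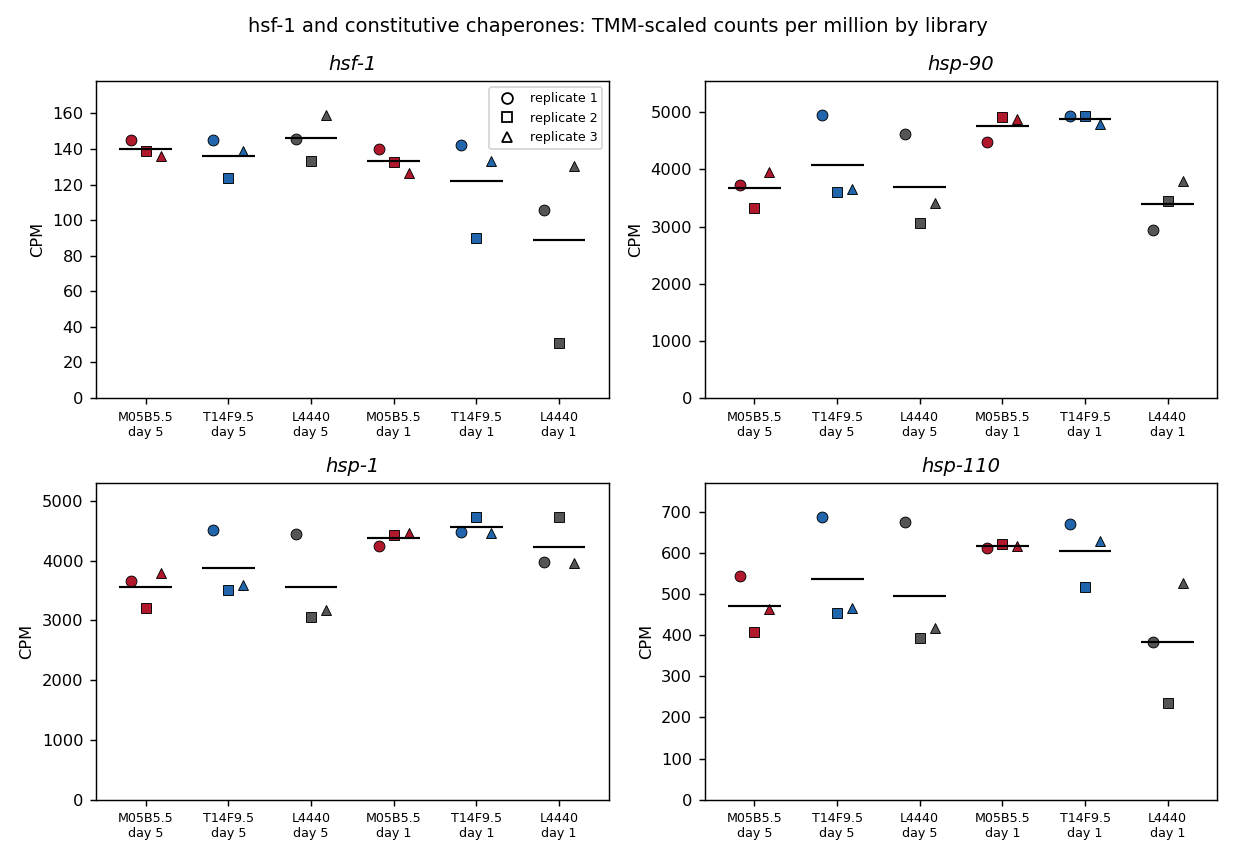
TMM-scaled CPM (linear axis from 0) of hsf-1, hsp-90, hsp-1 and hsp-110 in the 18 libraries, by labelled plasmid and age. Each point is a library, its shape gives the replicate and bars are group means. In hsf-1 and hsp-110 the second L4440 day-1 library is the lowest point, at 31.2 and 236 CPM, and in hsp-90 all 3 L4440 day-1 libraries lie below the other day-1 libraries.

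M05B5.5 and the label T14F9.5 were each tested against L4440, and not against each other. With all 18 libraries, edgeR called no member at either age, and the values most apart were those of hsp-90 and hsp-110 at day 1. At day 1, M05B5.5 libraries had 4479.6 to 4919 CPM of hsp-90 and those labelled T14F9.5 had 4796 to 4928 CPM, against 2931 to 3804 CPM in L4440. The M05B5.5 and L4440 libraries did not overlap, nor did those labelled T14F9.5 and L4440. The log2 fold change of hsp-90 was 0.49 ± 0.17 for M05B5.5 over L4440 (SE, adjusted p = 0.0894, edgeR) and 0.52 ± 0.18 for the label T14F9.5 over L4440 (SE, adjusted p = 0.146, edgeR). Both comparisons use the same L4440 libraries. For hsp-110 the M05B5.5 libraries, at 610.3 to 622 CPM, were above the L4440 libraries, at 236 to 527 CPM, with a log2 fold change of 0.69 ± 0.27 (SE, adjusted p = 0.105, edgeR). The libraries labelled T14F9.5 had 517 to 671 CPM of hsp-110 and overlapped with L4440, with a log2 fold change of 0.66 ± 0.27 (SE, adjusted p = 0.17, edgeR).

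At day 1, 0 of 8 members were called for M05B5.5 over L4440 in edgeR, against 0% of all genes (4685 genes under an unadjusted p of 0.05 and 2386 called in DESeq2), with 2 members under an unadjusted p of 0.05. For the label T14F9.5 over L4440, 0 of 8 were called, against 0% of all genes (3357 genes under an unadjusted p of 0.05 and 695 called in DESeq2), with 2 members under an unadjusted p of 0.05. DESeq2 called 1 of 8, hsp-90, in both comparisons (adjusted p = 0.0307 for M05B5.5, against 16.2% of all genes, and 0.0381 for the label T14F9.5, against 4.72% of all genes). With an offset for each library's trend with gene length, the hsp-90 values were -0.0032 for M05B5.5 and 0.14 for the label T14F9.5, and those of hsp-110 0.21 and 0.30 on the log2 scale. Without the third L4440 day-1 library, edgeR called hsp-90 in both comparisons (adjusted p = 0.024 for each), and also hsp-110 (log2 fold change 1.01 for M05B5.5 and 0.98 for the label T14F9.5). In that setting 3 members were called for M05B5.5, against 33.7% of all genes, and 2 for the label T14F9.5, against 25.9%. The slope with gene length was -0.24 and -0.66 in the first and second L4440 day-1 libraries, which were left, and -0.016 in the third. M05B5.5 and L4440 day-1 libraries shared no sequencing lane, and the 2 factors cannot be told apart there. With lane as a covariate, the hsp-90 value for the label T14F9.5 over L4440 was 0.58 ± 0.23 on the log2 scale (SE, adjusted p = 0.39, edgeR). The first L4440 day-1 library and the second day-1 library labelled T14F9.5 carry the same index and lane. Whether their reads were told apart was not tested. Without this pair, edgeR called 0 members in both comparisons.

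The inducible genes at day 1 rested on few counts, and none was apart between plasmids. The log2 fold changes for M05B5.5 over L4440 were 0.30 ± 1.03 for hsp-70, -1.03 ± 1.33 for hsp-16.2, -0.13 ± 1.53 for hsp-16.41 and -1.14 ± 0.61 for hsp-16.48 (SE, adjusted p from 0.21 to 0.969, edgeR). For the label T14F9.5 over L4440 they were -0.010 ± 1.06 for hsp-70, -0.53 ± 1.29 for hsp-16.2, 0.32 ± 1.49 for hsp-16.41 and -0.52 ± 0.60 for hsp-16.48 (SE, adjusted p from 0.624 to 0.996, edgeR). Standard errors of this size leave several-fold differences in either direction undetectable.

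At day 5, no member differed from L4440 beyond the spread of its libraries, under M05B5.5 or the label T14F9.5. For hsp-70, the group means were 4.60 ± 3.88 CPM in M05B5.5, 2.74 ± 2.15 CPM under the label T14F9.5 and 2.63 ± 1.91 CPM in L4440 (SD, n = 3 each). For hsp-16.2 they were 3.16 ± 2.74 CPM in M05B5.5, 2.59 ± 2.03 CPM under the label T14F9.5 and 2.03 ± 1.58 CPM in L4440. For hsp-16.41 they were 3.74 ± 3.47 CPM in M05B5.5, 2.66 ± 2.29 CPM under the label T14F9.5 and 2.097 ± 1.73 CPM in L4440. The order of the plasmids was the same in each, but neighbouring groups differed by less than their spread. With lane as a covariate, the signs turned: log2 fold changes for the label T14F9.5 over L4440 were -3.01 ± 1.68 for hsp-70, -2.75 ± 1.82 for hsp-16.2 and -3.36 ± 1.82 for hsp-16.41 (SE, adjusted p from 0.892 to 0.934, edgeR). For M05B5.5 over L4440 they were then -0.98, -1.03 and -1.21, with no call. None of 8 was called for M05B5.5 over L4440 at day 5 (0, against 0% of all genes, with 0 under an unadjusted p of 0.05 and 0 in DESeq2). The same held for the label T14F9.5 over L4440 at day 5 (0, against 0% of all genes, with 0 under an unadjusted p of 0.05 and 0 in DESeq2).

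The difference between the age effects of 2 plasmids was also tested. The interaction of M05B5.5 with age called 0 of 8 members, against 0% of all genes, with 0 under an unadjusted p of 0.05 in edgeR and 0 in DESeq2. The interaction of the label T14F9.5 with age likewise called 0 of 8, against 0% of all genes, with 0 under an unadjusted p of 0.05 and 0 in DESeq2. The point estimates had wide errors for the inducible genes: the age effect of hsp-70 differed by 0.50 ± 1.37 and that of hsp-16.2 by 1.67 ± 1.63 on the log2 scale, M05B5.5 minus L4440 (SE, adjusted p = 0.875 and 0.606, edgeR).

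The gene hsp-16.1 (WBGene00002015; V:9087293-9087782, minus strand, 438 bases of exon), another alpha-crystallin family gene, had 0 counts in all 18 libraries. It lies head to head with hsp-16.48, with 348 bases between them. Its near-identical copy hsp-16.11 (WBGene00002017; V:9090077-9090604, plus strand) and hsp-16.49 (WBGene00002020; V:9089280-9089766, minus strand), the copy of hsp-16.48, also had 0 counts in every library. A count of 0 allows up to 3 counts, which is 0.0706 to 0.129 CPM by library and covers counting error only. How reads that match both copies were counted is not given in the sources used here, so the 0 values and the level of hsp-16.48 are uncertain.

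**Figure D4:**
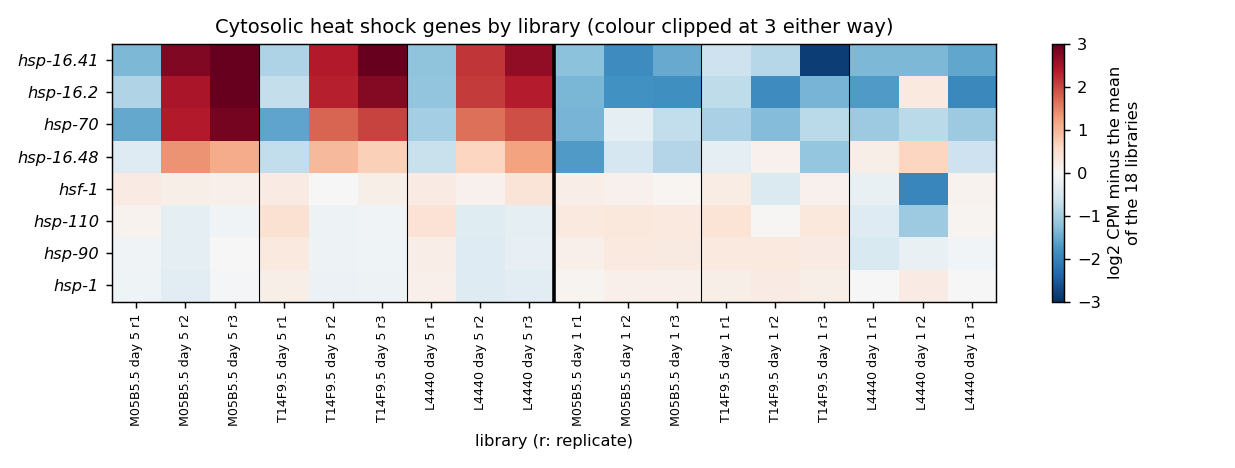
Log2 CPM of 8 genes in each of the 18 libraries, minus the gene's mean over the 18 libraries (red above, blue below), with day-5 libraries left of day-1 libraries. The 4 inducible genes are high together in replicates 2 and 3 of each day-5 group, and the second L4440 day-1 library is low for hsf-1 and hsp-110.

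Across libraries, the inducible genes were high and low together. Over the 18 libraries, which share plasmid, age and lane and the split of day-5 libraries above, Pearson's r of log2 CPM was 0.93 between hsp-70 and hsp-16.2, 0.94 between hsp-70 and hsp-16.41, 0.95 between hsp-16.2 and hsp-16.41, and 0.81 to 0.83 between hsp-16.48 and each of these 3. Without the 6 high day-5 libraries, over 12 libraries, r between hsp-70 and hsp-16.2 was -0.18 and between hsp-16.2 and hsp-16.41 0.25, where hsp-70 had 11 to 33 counts and hsp-16.2 had 4 to 17. The constitutive genes hsp-90 and hsp-1 had r of 0.74, hsp-90 and hsp-110 0.79, and hsp-1 had r of -0.65 to -0.77 with the 4 inducible genes. Without the 6 high day-5 libraries the sign turned, with r between hsp-1 and hsp-70 of 0.34, hsp-16.2 of 0.23, hsp-16.41 of 0.090 and hsp-16.48 of 0.14. The level of hsf-1 had r of 0.70 with hsp-110, which was 0.22 without the second L4440 day-1 library, of 0.08 to 0.23 with hsp-70, hsp-16.2 and hsp-16.41, and of -0.18 with hsp-16.48. Without the 6 high day-5 libraries, r of hsf-1 was -0.19 with hsp-70, -0.56 with hsp-16.2, -0.052 with hsp-16.41 and -0.70 with hsp-16.48.

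The genes most like each member over the 18 libraries, among genes averaging 5 CPM or more, were named by Pearson's r of log2 CPM, as a description. For hsp-70 they were M28.10 (0.98), the metallothionein gene mtl-1 (0.98) and lro-1 (0.98). For hsp-16.2 they were B0238.12 (0.99), pho-14 (0.98) and cpr-3 (0.97), for hsp-16.41 lro-1 (0.97), F54D5.9 (0.97) and M28.10 (0.97), and for hsp-16.48 F23H12.3 (0.95), E04F6.9 (0.94) and mrrf-1 (0.93). Without the 6 high day-5 libraries, in the same order, r was 0.37, 0.49 and 0.32 for hsp-70 and 0.90, 0.78 and 0.70 for hsp-16.2. It was 0.18, 0.45 and -0.21 for hsp-16.41 and 0.90, 0.83 and 0.82 for hsp-16.48. For hsp-90 they were rpn-3 (0.98), C32F10.8 (0.97) and atp-2 (0.96), for hsp-1 ucr-1 (0.97), pdha-1 (0.97) and act-2 (0.96), and for hsp-110 vha-19 (0.98), sec-61.A (0.98) and ogdh-2 (0.98). For hsf-1 they were tbc-2 (1.00), dnj-1 (0.99) and C32D5.10 (0.99), and these were 0.96, 0.96 and 0.96 without the second L4440 day-1 library.

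Over 9 lists of other chaperone and stress genes, 20 of 74 genes tested (27%) were called with age, averaged over the plasmids, which is near the 28.2% of all genes. Of the 20, 2 were higher and 18 lower, 5 of these being prefoldin subunits, against 1917 higher and 2240 lower of all genes. The directions moved with an offset for gene length, as given below. Of 8 co-chaperones of HSP-90, 4 fell and 0 rose: daf-41 (the p23 protein, -0.45), ahsa-1 (the Aha1 ATPase activator, -0.41), sti-1 (which links Hsp70 and Hsp90, -0.32) and cdc-37 (the kinase adaptor, -0.19), with adjusted p from 0.0102 to 0.0417 in edgeR. The list's median log2 fold change was -0.15. With an offset for gene length 1 gene rose and 1 fell, where 4308 of 14627 genes were called. The level of daf-41 was 425 to 471 CPM in the 6 day-5 libraries that were high for hsp-70 and 558 to 584 CPM in the first day-5 libraries, against 559 to 1094 CPM at day 1 (median 589). Of 11 co-chaperones of Hsp70, 1 fell (the J-protein dnj-23, -0.28, adjusted p = 0.0143, edgeR) and 0 rose, with a median of -0.14. Of the 5 regulators of HSF-1 (such as hsb-1, a negative regulator), 0 were called in edgeR and 0 in DESeq2, with 1 under an unadjusted p of 0.05 and a median of 0.098. Of 3 other cytosolic Hsp70 genes, 1 was tested and not called (F11F1.1, -0.23), and the near-identical heat-inducible genes F44E5.4 and F44E5.5 had 9 and 13 counts over the 18 libraries.

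Of 13 other small heat shock protein genes, 10 were tested, 4 fell and 0 rose: hsp-12.1 (-1.19), hsp-12.2 (-0.79), hsp-25 (-0.56) and ZK1128.7 (-0.40), with adjusted p from 0.00783 to 0.0358 in edgeR and a median of -0.27. These 4 were 40% of the genes tested in the list, against 28.2% of all genes. The gene hsp-25 was at 25.1 to 34.1 CPM in the 6 day-5 libraries that were high for hsp-70 and at 50.5 to 53.0 CPM in the first day-5 libraries, against 49.6 to 57.1 CPM at day 1, so that it too followed the split of day-5 libraries. Without the first day-5 libraries 3 genes of that list rose and 5 fell, where 45.6% of all genes were called. With an offset for gene length 3 rose and 1 fell, where 4308 of 14627 genes were called. Among the other lists, 5 of 6 prefoldin subunits fell (pfd-1 -0.66, pfd-2 -0.57, pfd-3 -0.49 and pfd-4 -0.46 the largest), with a median of -0.48. These 5 were 83.3% of the list, against 28.2% of all genes. By plasmid, the list's median was -0.25 in M05B5.5 with 0 called in edgeR, -0.35 under the label T14F9.5 with 0 called and -0.84 in L4440 with 6 lower. Of all genes, 0% were called in M05B5.5, 0% under the label T14F9.5 and 15.8% in L4440. Without the second L4440 day-1 library the list's averaged median was -0.35, with 5 lower, where 29.1% of all genes were called. In L4440 the list's median was then -0.45 with 0 called, where 0% of all genes were called. The level of pfd-1 was 85.4 to 103 CPM in the 9 day-5 libraries, against a median of 109 and a highest value of 447 CPM at day 1. None of 8 subunits of the CCT chaperonin was called (0 in edgeR and 0 in DESeq2, with 3 under an unadjusted p of 0.05), with a median of -0.14. Without the first day-5 libraries 5 fell, where 45.6% of all genes were called. Of 16 endoplasmic reticulum chaperone and stress genes 2 rose (the stress sensors pek-1, 0.59, and ire-1, 0.29) and 2 fell (the disulfide isomerases pdi-2, -0.39, and pdi-6, -0.31). Of 9 mitochondrial chaperone and protease genes 2 fell (Y22D7AL.10, -0.51, and clpp-1, -0.35). The shares called were 25% and 22.2%, no higher than the 28.2% of all genes.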

How the data were processed

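Per the labels' protocols, TruSeq RNA v2 libraries were prepared from total RNA of 18 samples. The submitters' processing notes name bcl2fastq 1.8.4 for demultiplexing, STAR 2.4.1d as aligner, WBcel235 as genome build, and featureCounts 1.4.6-p4. The deposited count table holds raw read counts per gene. Its strand setting, handling of multiply mapped reads and annotation release are not given in the sources used here. A second deposited table was not used.

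Counts were tested with edgeR 4.0.16 (R 4.3.3): filterByExpr with a minimum count of 10, TMM factors, 1 fit over the 6 groups and all 18 libraries (12 residual degrees of freedom), the quasi-likelihood test and Benjamini-Hochberg adjustment over 14735 genes. That test gives no SE, so each SE is the absolute log2 fold change divided by the square root of the test's F statistic. Such an SE is approximate, most of all for small fold changes. DESeq2 1.42.0 was an alternative. The code was tested on simulated data. Gene positions are from an annotation of WBcel235 (release 115), in which 46449 of 46748 identifiers were found. The members, lists and tests were chosen with earlier results of these data known. Named were all members, their copies, the targeted genes, the 3 genes most like each member, and up to 4 called genes per list by size of fold change. Heat shock element searches were not run here. Figures were drawn with matplotlib; totals and counts behind values are given above.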

Additional observations from a re-analysis of the deposited data

Results flagged for a closer look

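The gene hsp-110 differed between plasmids in its direction with age. Its log2 CPM at day 5 minus the day-1 mean was -0.395 on average in M05B5.5, where all 3 day-5 libraries were below that mean, whereas all 3 L4440 day-5 libraries were above the L4440 day-1 mean. The difference itself was -0.76 ± 0.38 on the log2 scale (SE, adjusted p = 0.385, edgeR's quasi-likelihood test), so it did not pass the test. The L4440 day-1 mean includes the library with 236 CPM of hsp-110, in which level fell with gene length. The other L4440 day-1 libraries had 384 and 527 CPM. L4440 day-5 replicates 2 and 3, at 393 and 416 CPM, lay between these values and below their mean. Replicate 1, at 675 CPM, lay above them. All 3 L4440 day-5 libraries were thus above the day-1 mean only with the 236 CPM library included. Without this library, edgeR called 0 members for the difference in age effect.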

How the results depend on the processing

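The number of members called, out of 8, moved in 6 comparisons. Age averaged over the plasmids called 5 and, without the pair of libraries that carry the same index and lane (L4440 day 1 replicate 1 and T14F9.5 day 1 replicate 2), called 3 (1555 of 14973 genes in all). Leaving out 1 library at a time it called 3 to 5, and hsp-70, hsp-16.2 and hsp-16.41 were called throughout. Age in L4440 called 0 in edgeR, 3 in DESeq2, 4 without the first day-5 libraries (4495 of 14952 genes in all), 4 without these and L4440 day 1 replicate 2 (4548 of 14884), and 0 to 2 when 1 library was left out. Age in M05B5.5 called 0 in edgeR, 2 in DESeq2, 4 without the first day-5 libraries (3049 of 14952), 7 without these and L4440 day 1 replicate 2 (4699 of 14884), and 0 to 4 when 1 library was left out, the 4 without M05B5.5 day 5 replicate 1 (733 of 14996). Age under the label T14F9.5 called 0, then 3 without the first day-5 libraries (2676 of 14952) and 6 without these and L4440 day 1 replicate 2 (4166 of 14884). M05B5.5 over L4440 at day 1 called 0, 1 in DESeq2, and 0 to 3 when 1 library was left out. The label T14F9.5 over L4440 at day 1 called 0, 1 in DESeq2, and 0 to 2 when 1 library was left out. The 3 and the 2 were found without L4440 day 1 replicate 3. The causes were not tested. Over all genes, edgeR called 0 and DESeq2 2386, 8 and 695 for M05B5.5 over L4440 at day 1, M05B5.5 over L4440 at day 5 and the label T14F9.5 over L4440 at day 1. Over all members and settings, 1308 of 1498 single values kept direction and side of the threshold, 30 lost a call, 51 gained one and 109 turned direction, of which 0 were called in either fit. The causes of these turns were not tested. Upper-quartile scaling moved the median of all genes by -0.104 for M05B5.5 over L4440 at day 1 and by -0.131 for age in L4440. With a gene length offset, small heat shock genes outside the members had 3 higher and 1 lower with age, and HSP-90 co-chaperones 1 and 1 (4308 of 14627 genes in all). Lane as a covariate could be fitted for only 5 comparisons, and leaves age averaged over the plasmids without a within-lane value. No paired analysis was possible because the labels give no replicate numbers. With 1 to 17 counts behind day-1 values of hsp-16.2 and hsp-16.41, depth limits their fold changes.

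The log2 fold changes that turned direction are given by setting, with differences between age effects taken against L4440. With upper-quartile factors they were hsp-1 for M05B5.5 over L4440 at day 1 (-0.059), hsp-90 for age in L4440 (-0.0077) and hsp-1 for the difference in age effect of M05B5.5 (0.055). With RLE factors it was hsp-70 for the label T14F9.5 over L4440 at day 1 (0.0014), and with the compared groups alone hsp-1 for M05B5.5 over L4440 at day 5 (0.0033). Without a filter they were hsp-1 for M05B5.5 over L4440 at day 5 (0.0066), hsp-70 for the label T14F9.5 over L4440 at day 1 (0.046), and hsp-1 (-0.044) and hsp-16.41 (-0.026) for the difference in age effect of T14F9.5. With a gene length offset they were hsp-90 (-0.0032), hsp-1 (-0.36), hsp-70 (-0.050) and hsp-16.41 (0.29) for M05B5.5 over L4440 at day 1, and hsp-1 (-0.21), hsp-16.2 (0.033) and hsp-16.48 (0.020) for the label T14F9.5 over L4440 at day 1. That offset also turned hsp-90 (-0.31) and hsp-110 (-0.054) for age in L4440, hsp-1 for the difference in age effect of M05B5.5 (0.35), and hsp-16.41 (-0.32) and hsp-16.48 (-0.099) for that of T14F9.5. With lane as a covariate they were hsp-110 (0.0016), hsp-70 (-0.98), hsp-16.2 (-1.03), hsp-16.41 (-1.21) and hsp-16.48 (-0.23) for M05B5.5 over L4440 at day 5, and hsp-70 (-3.01), hsp-16.2 (-2.75) and hsp-16.41 (-3.36) for the label T14F9.5 over L4440 at day 5. Lane also turned hsp-70 (0.060) and hsp-16.41 (-0.22) for the label T14F9.5 over L4440 at day 1, and hsp-1 (-0.058), hsp-70 (-3.07), hsp-16.2 (-2.46), hsp-16.41 (-3.14) and hsp-16.48 (-0.21) for the difference in age effect of T14F9.5. Day-5 libraries labelled T14F9.5 and L4440 shared no lane. Without the first day-5 libraries they were hsp-90 (0.17), hsp-1 (0.17) and hsp-110 (0.11) for M05B5.5 over L4440 at day 5, hsp-90 for age in L4440 (-0.067) and hsp-1 for the difference in age effect of M05B5.5 (0.11). Without that pair of equally indexed libraries they were hsp-70 for the label T14F9.5 over L4440 at day 1 (0.084), hsf-1 for age under T14F9.5 (-0.021) and hsp-70 for the difference in age effect of T14F9.5 (-0.027).

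Ranges follow for values that turned when 1 library was left out, or the first day-5 libraries together with L4440 day 1 replicate 2. For M05B5.5 over L4440 at day 1 they were -0.016 to 0.56 for hsp-70, -1.44 to 0.20 for hsp-16.2 and -0.34 to 0.085 for hsp-16.41. For M05B5.5 over L4440 at day 5 they were -0.11 to 0.017 for hsf-1, -0.11 to 0.18 for hsp-90, -0.084 to 0.19 for hsp-1, -0.19 to 0.22 for hsp-110, -0.12 to 1.18 for hsp-16.2, -0.033 to 1.46 for hsp-16.41 and -0.086 to 0.76 for hsp-16.48. For the label T14F9.5 over L4440 at day 1 they were -0.14 to 0.13 for hsp-70, -0.96 to 0.69 for hsp-16.2 and -0.16 to 0.86 for hsp-16.41. For the label T14F9.5 over L4440 at day 5 they were -0.027 to 0.33 for hsp-90, -0.0031 to 0.32 for hsp-1, -0.11 to 0.41 for hsp-110, -0.46 to 0.58 for hsp-70, -0.22 to 0.87 for hsp-16.2, -0.41 to 0.96 for hsp-16.41 and -0.47 to 0.37 for hsp-16.48. With age they were -0.066 to 0.25 for hsp-90 and -0.17 to 0.70 for hsp-110 in L4440, -0.021 to 0.28 for hsf-1 under T14F9.5, and -0.34 to 0.051 for hsp-110 averaged over the plasmids. For the difference in age effect they were -0.15 to 0.14 for hsp-1 and -0.15 to 1.05 for hsp-70 in M05B5.5, and -0.12 to 0.20 for hsp-1, -0.46 to 0.59 for hsp-70, -0.34 to 1.38 for hsp-16.2 and -0.74 to 0.63 for hsp-16.41 under T14F9.5.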
